A study of Homo sapiens with 12 samples.

Results

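Polycomb repressive complex 2 (PRC2) places methyl groups on lysine residues of the histone H3 tail at silenced genes and is best known for keeping homeobox and other developmental genes off. Its core holds a catalytic subunit, EZH2 or its relative EZH1, together with SUZ12, EED and a histone-binding WD40 protein, RBBP4 or RBBP7. Accessory subunits guide it to chromatin: the Polycomb-like proteins MTF2 and PHF19 in one form of the complex, and JARID2 with AEBP2 in the other. The 10 genes for these subunits were taken by symbol from a table of 49651 genes with counts, and all 10 were found and passed the filter on low counts.

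The mRNA was sequenced from D283 cells, an established medulloblastoma line, in 2 groups of 3 libraries: cells in which ABL1 and ABL2, a pair of related tyrosine kinase genes, were genetically inactivated, and cells that carried a scrambled control. Each library was read on 2 lanes, which were summed. The sources used here give neither the method of inactivation nor whether the cells are 1 clone or a pool. Separate cultures are not named in the labels, and the p-values reflect no more than the spread among the libraries, which may be technical. Totals were between 34292341 and 49034159 counts in the inactivated libraries, and between 33505903 and 35893081 in the control libraries. ABL1 had 61.8 ± 0.625 CPM (TMM-normalized counts per megacount of library) in inactivated cells and 153 ± 4.82 CPM in control cells, and ABL2 had 104 ± 7.59 CPM against 138 ± 5.58 CPM (mean ± SD, n = 3 each, as below). Of 8 markers of Group 3 medulloblastoma 7 were at or above 1 CPM, NRL being at 0, and their summed level, scaled by library total alone like all marker levels here, was 2693 to 2758 CPM in inactivated libraries, against 2363 to 2400 CPM in control libraries. The markers differed in direction, with OTX2 at 661 to 675 CPM in inactivated libraries, against 807 to 840 CPM in control libraries, and IMPG2 at 299.8 to 337 CPM, against 62.4 to 69.8 CPM. Summed markers of other cell types were 0.719 to 1.37 CPM in inactivated and 0.585 to 1.01 CPM in control libraries for leukocytes (4 of 5 with counts, CD3E at 0), 33.8 to 37.4 and 42.4 to 45.7 CPM for fibroblasts (5 of 6, COL3A1 at 0), 54.6 to 55.3 and 73.7 to 76.2 CPM for astrocytes (3 of 4, ALDH1L1 at 0), and 9.77 to 10.99 and 4.09 to 4.42 CPM for endothelium (4 of 4, of which KDR held 7.87 to 9.13 CPM in inactivated and 1.89 to 2.57 CPM in control libraries). SLC1A3 held nearly all of the astrocyte sum, with 54.6 to 55.3 CPM in inactivated and 73.6 to 76.2 CPM in control libraries. Fibroblast markers differed in direction. COL1A1 was at 14.1 to 15.8 CPM in inactivated and 7.41 to 8.51 CPM in control libraries, and PDGFRB at 18.5 to 19.98 and 31.1 to 33.9 CPM. The part of other cell types in the results was not tested. In such bulk RNA, fewer cells of a type and less RNA per cell cannot be told apart.

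PRC2 subunit mRNAs did not move as 1 block. SUZ12, JARID2 and EZH1 were 1.61- to 1.70-fold higher in inactivated cells, EED was 1.09-fold higher, PHF19 and AEBP2 were lower by 17.2% and 7.76%, and EZH2, RBBP4, RBBP7 and MTF2 did not pass the threshold. Levels were compared with edgeR's quasi-likelihood test, with Benjamini-Hochberg adjustment over 14704 genes and a threshold of 0.05. By this test 6 of 10 members changed, 4 higher and 2 lower. In the whole transcriptome 59.3% of tested genes changed, 29.6% higher and 29.7% lower, so the members' count is near the background. Their median log2 fold change was 0.03, against 0.00 over all genes tested. In 7 of 10 members the 2 groups did not overlap, which held for 63.2% of all tested genes. Of all tested genes 12.8% rose by at least 1.5-fold, as did 3 of the 10 members.

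**Figure D1:**
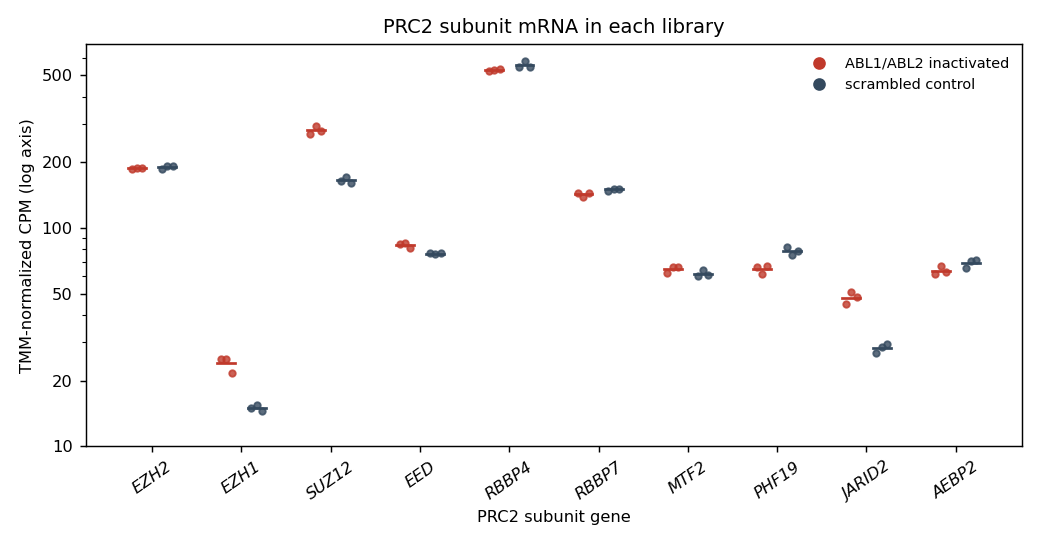
Each point is 1 library and each bar the mean of 3 libraries. The horizontal axis gives the subunit genes and the vertical axis TMM-normalized CPM on a log scale, with inactivated cells left of control cells. SUZ12, EZH1 and JARID2 lie higher in inactivated cells with no overlap, while the EZH2 points of both groups lie between 186 and 192 CPM.

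The start regions of the 3 genes with the largest increases are printed here, with that of EZH2, which did not pass, beside them. Shared regulation of these genes was not tested. The sequences are RefSeq's for GRCh38.p14, read 5′ to 3′ on the gene's strand: the 250 bases before the start, and for EZH2 9 further bases that complete a match. Capitals mark words of the E2F type (TTTCCCGC, TTTCGCGC, TTTGCCGC or TTTGGCGC) or the CCAAT box, on either strand.
SUZ12, chr17:31936757-31937006, forward strand: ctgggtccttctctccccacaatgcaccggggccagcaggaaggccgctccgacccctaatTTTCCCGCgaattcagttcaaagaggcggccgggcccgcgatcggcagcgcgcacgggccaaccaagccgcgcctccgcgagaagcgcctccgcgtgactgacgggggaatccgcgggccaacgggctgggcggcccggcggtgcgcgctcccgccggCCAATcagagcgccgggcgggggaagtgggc
EZH1, chr17:42745041-42745290, reverse strand: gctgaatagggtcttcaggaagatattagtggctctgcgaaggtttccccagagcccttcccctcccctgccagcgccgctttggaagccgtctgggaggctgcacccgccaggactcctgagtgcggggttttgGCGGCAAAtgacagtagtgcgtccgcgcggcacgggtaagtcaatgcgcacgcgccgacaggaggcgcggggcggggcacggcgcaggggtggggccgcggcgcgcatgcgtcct
JARID2, chr6:15245819-15246068, forward strand: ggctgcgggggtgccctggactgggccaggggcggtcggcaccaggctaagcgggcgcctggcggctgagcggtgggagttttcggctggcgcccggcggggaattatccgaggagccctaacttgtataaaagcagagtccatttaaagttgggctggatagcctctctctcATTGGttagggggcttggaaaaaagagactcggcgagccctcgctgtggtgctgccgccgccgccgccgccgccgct
EZH2, chr7:148884283-148884541, reverse strand: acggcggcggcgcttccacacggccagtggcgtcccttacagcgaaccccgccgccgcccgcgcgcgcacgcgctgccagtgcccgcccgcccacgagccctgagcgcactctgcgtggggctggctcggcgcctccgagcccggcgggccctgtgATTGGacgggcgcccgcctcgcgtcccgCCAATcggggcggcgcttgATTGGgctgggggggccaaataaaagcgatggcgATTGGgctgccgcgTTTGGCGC

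An E2F-type word stood before the start in SUZ12 and EZH1, just after it in EZH2, and in no printed part of JARID2. RefSeq gave 15 windows for the 10 members, some genes having several starts. Before the start, 4 of the 15 windows held an E2F-type word (SUZ12, EZH1, AEBP2 and 1 of PHF19), against 2.79% of 35116 windows in the genome, and 6 of 15 did so within the full 300 bases, against 3.31%. CCAAT stood in 10 of the 15 windows, against 32.0% of all. The windows of all genes were not matched to those of the members for GC content, which was 51.2% to 79.6% in the members' windows. The RBBP4 windows overlap and share 1 CCAAT match, so the 15 windows are not independent. Enrichment was not tested. Of the printed windows, that of EZH2 held 4 CCAAT matches before the start, those of SUZ12 and JARID2 1 each, and that of EZH1 0. EZH2 and JARID2 each have a further window, not printed, with 0 matches to either motif. Subunits that rose and subunits that did not pass the threshold both hold these words. A match is a description of letters and not a binding site.

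EZH2 and EZH1 encode the catalytic subunits, EZH2 being the main methyltransferase of dividing cells and EZH1 that of resting ones. EZH2 (GRCh38.p14, as are all positions here, chromosome 7, 148807383 to 148884291, reverse strand) had 187, 187 and 189 CPM in the inactivated libraries, against 186, 192 and 192 CPM in the control libraries. The groups overlapped. The difference was -0.02 ± 0.039 on the log2 scale (SE; 95% interval -0.10 to 0.06, edgeR adjusted p 0.713), and the interval reaches from 0.932-fold to 1.05-fold. Its sign turned with scaling on chromosomes without shifted stretches (0.010).

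EZH1 (chromosome 17, 42700275 to 42745040, reverse strand) had 25.2, 25.2 and 21.8 CPM in the inactivated libraries, against 14.9, 15.4 and 14.6 CPM in the control libraries. Every inactivated library was above every control library, and inactivated replicate 3 was the lowest of its group. On the log2 scale EZH1 was higher by 0.69 ± 0.068 (interval 0.54 to 0.83, edgeR adjusted p 6.1e-08). EZH1 had 4466 counts over the 6 libraries, the fewest of the 10 genes, and its SE was the largest among them.

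The ratio of the catalytic subunits did not overlap between the groups. Per summed exon length, the ratio of EZH1 to EZH2 was 0.400, 0.398 and 0.342 in the inactivated libraries, against 0.239, 0.238 and 0.224 in the control libraries. Per transcript length it was 0.0770, 0.0767 and 0.0657 in the inactivated libraries, against 0.0459, 0.0457 and 0.0432 in the control libraries. By either length it was 1.62-fold higher in inactivated cells, a difference of 0.70 on the log2 scale that does not depend on gene length. By an exact permutation test over libraries, two-sided, p was 0.1, the smallest that 3 against 3 libraries allow, and 0.133 after adjustment over the 4 ratios compared here. EZH2 transcripts were the more abundant in all 6 libraries whichever gene length was used.

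SUZ12, the zinc finger subunit that scaffolds the core and holds the accessory proteins, was higher in inactivated cells. SUZ12 (chromosome 17, 31937007 to 32001038, forward strand) had 270.2, 294 and 277 CPM in the inactivated libraries, against 164, 171 and 161 CPM in the control libraries. The groups were far apart, the lowest inactivated library lying well above the highest control one. On the log2 scale SUZ12 was higher by 0.76 ± 0.044 (interval 0.67 to 0.85, edgeR adjusted p 2.9e-11).

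A partial copy, SUZ12P1, lies on the same chromosome and can compete for reads. Of all 50-base stretches of the longest SUZ12 coding transcript in GENCODE 29, 5.31% also occur in SUZ12P1. SUZ12P1 was also higher, with means of 31.7 CPM in inactivated cells and 17.1 CPM in control cells (log2 fold change 0.89 ± 0.072, edgeR adjusted p 3.1e-09). With its counts added to those of SUZ12, the log2 fold change of SUZ12 was 0.77.

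EED, the subunit that reads methylated histone H3 and stimulates the enzyme, rose slightly. EED (chromosome 11, 86244753 to 86287615, forward strand) had 84.1, 85.6 and 80.8 CPM in the inactivated libraries, against 76.7, 75.8 and 76.8 CPM in the control libraries. The groups did not overlap, though the gap was small. EED was higher by a log2 value of 0.13 ± 0.043 (interval 0.04 to 0.22, edgeR adjusted p 0.0144). Without control replicate 2 the adjusted p was 0.0629, and against a fold of 1.2 as the null EED did not pass.

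RBBP4 and RBBP7, the WD40 proteins that bind histones, also belong to histone deacetylase, chromatin assembly and other complexes, so their mRNA is not specific to PRC2. RBBP4 (chromosome 1, 32651208 to 32686211, forward strand) had the highest counts of the 10 genes, with 525, 529 and 532 CPM in the inactivated libraries, against 548, 579 and 548 CPM in the control libraries. RBBP7 (chromosome X, 16844341 to 16870362, reverse strand) had 145, 139 and 145 CPM in the inactivated libraries, against 147, 152 and 152 CPM in the control libraries. Both were lower in every inactivated library than in any control library, yet neither passed the threshold. The log2 difference of RBBP4 was -0.08 ± 0.042 (interval -0.17 to 0.01, edgeR adjusted p 0.111). That of RBBP7 was -0.07 ± 0.041 (interval -0.16 to 0.01, adjusted p 0.142).

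The ratio of RBBP4 to RBBP7 overlapped between the groups. Per summed exon length, it was 1.27, 1.33 and 1.28 in the inactivated libraries, against 1.30, 1.34 and 1.27 in the control libraries. Its difference was -0.01 on the log2 scale (exact permutation p 0.9, adjusted p 0.9). The longest coding transcripts of RBBP4 and RBBP7 share 0 stretches of 50 bases, and neither do those of EZH1 and EZH2, or of MTF2 and PHF19. Exons of RBBP4, 7960 bases in sum, overlap those of SYNC on the opposite strand over 4309 bases. SYNC held 653 counts over the 6 libraries, against 121517 for RBBP4. Exons of RBBP7 overlap those of TXLNG on the opposite strand over 179 bases. TXLNG fell by 0.18 ± 0.041 on the log2 scale. The sources used here do not say whether counting used strand. If it did not, reads in shared stretches may have counted for neither gene, which the counts of SYNC and TXLNG cannot show. The levels of RBBP4 and RBBP7 per length, and their ratio, carry this limit.

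MTF2 and PHF19 encode Polycomb-like proteins, which bind unmethylated CpG-rich DNA and methylated histone H3. MTF2 (chromosome 1, 93079283 to 93139076, forward strand) had 62.0, 66.2 and 66.6 CPM in the inactivated libraries, against 60.4, 64.1 and 61.1 CPM in the control libraries. These overlapped, with a log2 difference of 0.07 ± 0.047 (interval -0.03 to 0.17, edgeR adjusted p 0.202). PHF19 (chromosome 9, 120855651 to 120904128, reverse strand) had 66.5, 61.9 and 66.8 CPM in the inactivated libraries, against 82.1, 75.1 and 78.3 CPM in the control libraries. The inactivated libraries all lay below the control libraries. PHF19 fell by 0.27 ± 0.048 on the log2 scale (interval -0.37 to -0.17, edgeR adjusted p 7.3e-05). Its call held without any 1 library and was lost only against a fold of 1.2 as the null (adjusted p 0.422).

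The ratio of MTF2 to PHF19 per summed exon length was 1.74, 2.002 and 1.87 in the inactivated libraries, against 1.38, 1.596 and 1.46 in the control libraries. Per transcript length it was 0.958, 1.10 and 1.02 in the inactivated libraries, against 0.756, 0.877 and 0.802 in the control libraries, so which of the pair was the more abundant depends on the length. The ratio was 1.27-fold higher in inactivated cells with no overlap between the groups (difference 0.34 on the log2 scale, exact permutation p 0.1, adjusted p 0.133).

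JARID2, a Jumonji family protein without demethylase activity that recruits PRC2, was higher in inactivated cells by about as much as SUZ12. JARID2 (chromosome 6, 15246069 to 15522042, forward strand) had 44.6, 50.7 and 48.5 CPM in the inactivated libraries, against 26.6, 28.6 and 29.5 CPM in the control libraries. No library of one group reached the range of the other. The increase of JARID2 came to a log2 value of 0.76 ± 0.058 (interval 0.64 to 0.89, edgeR adjusted p 1.4e-09). The antisense transcript JARID2-AS1 held 1 count over all 6 libraries.

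AEBP2, the zinc finger partner of JARID2 in the same form of the complex, was slightly lower. AEBP2 (chromosome 12, 19404072 to 19522227, forward strand) had 61.9, 66.7 and 63.1 CPM in the inactivated libraries, against 65.8, 70.5 and 71.7 CPM in the control libraries, so inactivated replicate 2 lay above control replicate 1. The log2 fold change was -0.12 ± 0.048 (interval -0.22 to -0.02, edgeR adjusted p 0.0438). This call was lost without inactivated replicate 1 or 3 (adjusted p 0.141 and 0.138) and without control replicate 2 or 3 (0.117 and 0.131), and with DESeq2 (0.0712).

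The ratio of JARID2 to AEBP2 per summed exon length was 0.301, 0.317 and 0.321 in the inactivated libraries, against 0.169, 0.169 and 0.172 in the control libraries. Per transcript length it was 0.639, 0.673 and 0.682 in the inactivated libraries, against 0.359, 0.360 and 0.365 in the control libraries. It was 1.84-fold higher in inactivated cells (difference 0.88 on the log2 scale, exact permutation p 0.1, adjusted p 0.133), the largest shift of the 4 ratios.

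The 3 genes with the largest increases lie where neighbouring genes were also higher. Stretches of several chromosomes shift together in these cells, so each member was set beside the 50 nearest tested genes with at least 5 CPM in 1 group. Around EZH1 the median of the 50 neighbours was 0.50 on the log2 scale, and 44 of them rose. The neighbours of SUZ12 had a median of 0.37 with 38 that rose, and those of JARID2 a median of 0.47 with 41 that rose. For the other 7 members the medians lay between -0.11 and 0.01, and between 9 and 20 of 50 neighbours rose.

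The members stood above these medians to different degrees. EZH1 exceeded the median of its 50 neighbours by 0.18 on the log2 scale, and 16 of the 50 had a higher log2 fold change. SUZ12 exceeded its median by 0.38, with 9 of 50 neighbours above it, the partial copy SUZ12P1 among them. JARID2 exceeded its median by 0.29, with 6 of 50 neighbours above it. With only the 20 nearest genes, the excess was 0.17 for EZH1, 0.18 for SUZ12 and 0.34 for JARID2, so that of SUZ12 depended on how far the neighbourhood reached. Of those 20 genes, 6 lay above EZH1, 7 above SUZ12 and 2 above JARID2. The 20 nearest to SUZ12 had a median of 0.58, and 19 of them rose. The share of the neighbourhood in these increases was not tested, and DNA copy number was not measured.

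Among the other members, EZH2 lay 0.09 above the median of its 50 neighbours (-0.11), and EED 0.13 above its own (-0.01). PHF19 differed from the median of its 50 neighbours by -0.17 and from that of the 20 nearest by -0.26, and AEBP2 by -0.12 and -0.20. For RBBP7 these differences were 0.003 and -0.11, for MTF2 0.09 and -0.06, and for RBBP4 -0.07 and -0.08.

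**Figure D2:**
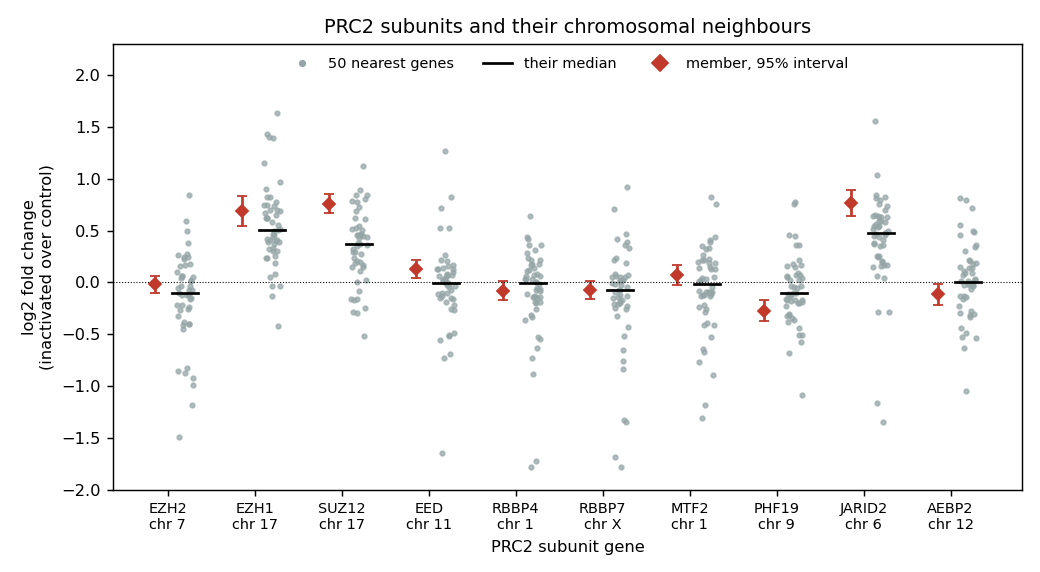
Diamonds give the log2 fold change of each member, inactivated over control, with its 95% interval, grey points the 50 nearest tested genes on the same chromosome, and bars the median of those genes. The neighbours' medians are 0.50, 0.37 and 0.47 at EZH1, SUZ12 and JARID2 and lie between -0.11 and 0.01 elsewhere, and 9 neighbours beyond the axis are not drawn.

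Levels of different subunits can be set side by side only per length, and the length matters here. The deposited table sums every annotated exon base, which gives EZH2 13744 bases and JARID2 15171 bases, against 2639 and 5755 bases for the longest coding transcript in GENCODE 29. Per kilobase of summed exon, EZH2 was at 13.7 ± 0.0839 CPM in inactivated cells and 13.8 ± 0.283 CPM in control cells. Per kilobase of transcript it was at 71.1 ± 0.437 and 72.0 ± 1.48 CPM, which moved it from the middle of the order to the top. The other genes whose value per kilobase changed by over 1.5 times with the length were EED, JARID2 and PHF19.

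By transcript length, inactivated cells had EZH2 at the top, followed by RBBP4 with 66.6 ± 0.458 CPM per kilobase, SUZ12 with 62.4 ± 2.71 and RBBP7 with 61.3 ± 1.52. SUZ12 and RBBP7 did not differ beyond their spread in inactivated cells. In control cells RBBP4 stood at 70.3 ± 2.26 CPM per kilobase, not apart from EZH2 beyond their spread, RBBP7 at 64.4 ± 1.10 and SUZ12 at 36.9 ± 1.16. EED had 37.6 ± 1.12 CPM per kilobase in inactivated cells and 34.4 ± 0.252 in control cells. By transcript length SUZ12 thus lay near EED in control cells and beside RBBP7 in inactivated cells. By summed exon length SUZ12 was not near EED in control cells, with 34.9 ± 1.10 against 12.7 ± 0.0930 CPM per kilobase.

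The accessory subunits were all lower than the core subunits other than EZH1 by transcript length. In inactivated cells MTF2 had 15.7 ± 0.616, PHF19 15.3 ± 0.648 and AEBP2 12.5 ± 0.487 CPM per kilobase of transcript, against 14.99 ± 0.477, 18.5 ± 0.825 and 13.6 ± 0.616 in control cells. MTF2 and PHF19 did not differ beyond their spread in inactivated cells. JARID2 had 8.33 ± 0.530 CPM per kilobase in inactivated cells and 4.91 ± 0.259 in control cells, and EZH1 was the lowest with 5.20 ± 0.427 and 3.24 ± 0.0909.

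**Figure D3:**
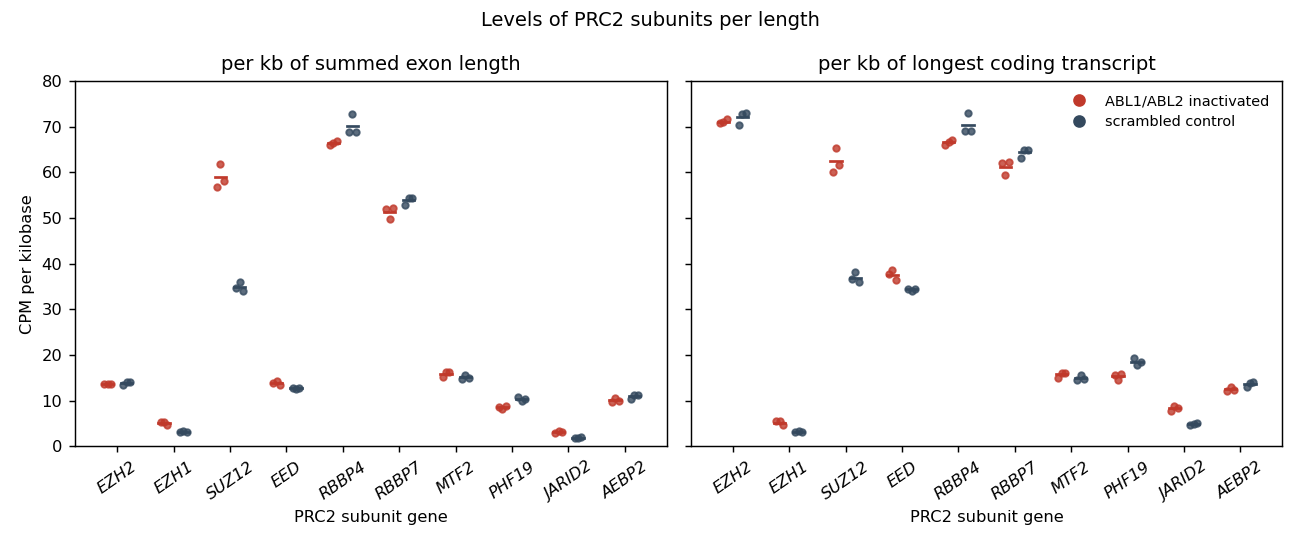
Points are libraries and bars means of 3, in CPM per kilobase (vertical axis, linear) for each subunit gene, inactivated left of control. The left panel divides by the summed exon length of the count table and the right panel by the longest coding transcript, where EZH2 is the highest with 71.1 and 72.0 CPM per kilobase.

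The genes whose profile over the 6 libraries was most like that of EZH2, by Euclidean distance of centred log2 CPM among 9851 other genes with at least 5 CPM, were E2F6, WAC and CMTM6, with distances of 0.0227, 0.0266 and 0.0291. E2F6, a repressor found in Polycomb-type complexes, had 39.9 ± 0.272 CPM in inactivated cells and 40.3 ± 1.09 CPM in control cells. Because EZH2 itself hardly varied over the 6 libraries, the smallest distances pick out genes that varied as little. The log2 fold changes of E2F6, WAC and CMTM6 were -0.014, 0.0009 and -0.003. What the profiles share is a lack of change, and shared regulation was not tested.

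Other genes around PRC2 moved in both directions, to be read against the 29.6% of all tested genes that rose and the 29.7% that fell. Unlike the members, genes of these lists and of the target lists below were not set beside their chromosomal neighbours. The share of shifted stretches in their changes was not tested. Of PRC2 partners outside the 10 members 3 of 5 were tested: LCOR rose to 186 ± 15.9 CPM in inactivated cells, against 156 ± 3.78 CPM in control cells, while LCORL fell to 48.6 ± 2.41 CPM, against 59.9 ± 1.22 CPM. Among 7 genes for demethylases and methyltransferases that counteract PRC2, 2 rose, 0 fell and 5 did not pass, and the demethylase gene KDM6A had 31.0 ± 1.76 CPM in inactivated cells and 27.5 ± 0.963 CPM in control cells. Of 23 tested among 25 PRC1 genes, which encode the partner complex that ubiquitinates histone H2A, 7 rose and 10 fell with a median log2 fold change of -0.03. Its catalytic gene RNF2 rose to 185 ± 4.87 CPM in inactivated cells, against 117 ± 1.65 CPM in control cells, and PCGF5 fell to 10.8 ± 0.484 CPM, against 35.8 ± 2.51 CPM. Of 10 tested among 11 genes of the opposing H2A deubiquitinase complex 2 rose and 2 fell (median 0.05), and of 15 COMPASS and trithorax genes 7 rose and 3 fell (median 0.09). In other complexes that hold RBBP4 or RBBP7, 7 of 24 genes rose and 7 fell (median 0.01), a share called of 58.3%, near the 59.3% of all tested genes. Among 23 tested of 24 proliferation genes regulated by E2F factors, which also regulate EZH2, 9 rose and 6 fell (median 0.04). MKI67 rose to 522 ± 7.39 CPM in inactivated cells, against 337 ± 26.7 CPM in control cells, while MCM5 fell to a mean of 157 CPM, against 215 CPM.

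Known PRC2 targets did not share 1 direction. Their counts are to be read against all tested genes, of which 29.6% rose and 29.7% fell. Of 39 HOX genes 16 passed the filter on low counts. Of these, 4 (HOXB13, HOXC11, HOXC12 and HOXC13) were under its minimum in every control library and passed through the inactivated libraries alone. HOXC10 was near that minimum in control cells, with 27 counts over the control libraries, against 273 over the inactivated ones. A count or median over the tested HOX genes is therefore tilted upward. Among 6 tested HOXA genes 1 rose and 1 fell, with a median log2 fold change of -0.04. Of the 9 HOXC genes, whose rise was known when the subunits were chosen, 8 rose, HOXC8 did not pass, and HOXC11 had 1116 counts in inactivated cells and 3 in control cells, a ratio of 325 (95% counting interval 111 to 1578). HOXC12 had 118 counts in inactivated cells and 0 in control cells, at least 34.4-fold higher against a floor of 3 counts over the control group. Of 37 tested among 82 developmental transcription factor genes known as PRC2 targets in embryonic stem cells, 16 rose and 13 fell. Of the 37, 3 passed the filter through 1 group alone. NR2F1 rose to 45.6 ± 1.63 CPM in inactivated cells, against 6.12 ± 0.881 CPM in control cells, and NR2F2 fell to a mean of 163 CPM, against 301 CPM. Of 10 tested among 14 genes described as silenced by PRC2 in cancer cells, 8 fell and 1 rose. Of the 10, 1 passed the filter through the control libraries alone. The gene that rose was SLIT2, with 48.3 ± 2.37 CPM in inactivated cells and 11.7 ± 0.542 CPM in control cells. TIMP3, an inhibitor of matrix proteases on this list, fell to 252 ± 8.75 CPM, against 662 ± 21.8 CPM. Histone methylation was not measured.

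**Figure D4:**
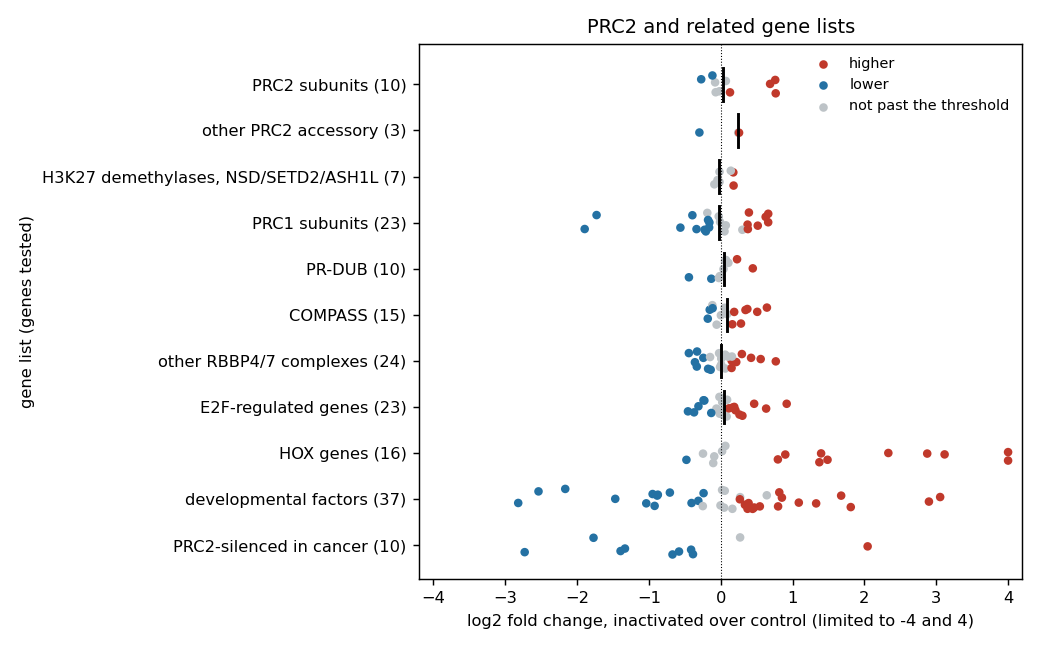
Each point is a tested gene, placed by its log2 fold change, inactivated over control, and limited to -4 and 4; rows are gene lists with the number tested, and bars are medians, left out for the lowest 3 rows, where some genes pass the filter through 1 group alone. Red genes were higher and blue genes lower by edgeR's test. The PRC2 subunits have a median of 0.03 and the PRC1 genes of -0.03.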

How the data were processed

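The deposited values are the authors' raw counts of reads per gene for every library and lane. Per the submitters' processing notes, STAR 2.7.2b and featureCounts 1.6.3 were among the tools used, along with DESeq2 1.36.0, and the build was GRCh38.p14. The deposited table also gives summed exon length in bases. The sources used here do not state how strands and multiply aligned reads were treated. Of 49677 genes, 26 without counts were left out.

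Lanes were summed, since chi-square per degree of freedom was 1.13 to 1.21 between lanes, 3.17 to 13.6 between libraries of a group and 86.7 to 111 between groups. The authors' counts were filtered with filterByExpr (minimum count 10, minimum total 15), scaled by TMM and compared with edgeR 4.0.16 across all 14704 genes passing. The biological coefficient of variation was 0.0447. A gene with no read can hold up to 3 counts, 0.0612 to 0.0895 CPM by library total. Markers were scaled by library total without TMM. This floor and counting intervals cover counting error only. Alternatives were DESeq2 1.42.0, limma 3.58.1 (voom) and other settings. Ratios were tested over libraries in scipy 1.17.1. Tested on simulated data, edgeR recovered 98% of genes changed by 2-fold. That simulation changed far fewer genes than were called in the data. No member changed by 2-fold, so this share does not cover the members' smaller changes.

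The members, gene lists and tests were chosen with earlier results of these data known. Named were all members and, of each list, some of the 4 with the lowest p past the threshold, besides HOXC genes, the genes most like EZH2, and related or overlapping transcripts. Replicate numbers follow the order of deposit. Promoter sequences came from RefSeq and transcripts from GENCODE 29.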

Additional observations from a re-analysis of the deposited data

How the results depend on the processing

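The increases of EZH1, SUZ12 and JARID2 kept their direction and passed the threshold under every setting with a test, including each library left out, each lane alone, DESeq2, limma-voom, no filter, and a fold of 1.2 as the null. Their log2 fold changes ranged from 0.65 to 0.75, 0.72 to 0.80 and 0.72 to 0.81. The count of members that rose was 4 in every setting except without control replicate 2 and against a fold of 1.2, where it was 3, EED being lost. The count that fell was 1 rather than 2 with DESeq2, in lane 1 alone, in lane 2 alone and with scaling on chromosomes without shifted stretches, and 0 against a fold of 1.2. With a library left out it ranged from 1 to 2. Except against that fold, where PHF19 was lost too, AEBP2 decided this count, and it passed in 5 of 14 settings. That scaling, like the length of the transcript and the addition of SUZ12P1, was chosen after seeing the data; it moved the median of all genes by 0.03 on the log2 scale.

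Signs turned for members near 0. EZH2 had 0.010 with that scaling and 0.088 and 0.12 relative to the 50 and 20 nearest genes, RBBP7 had 0.0030 relative to the 50 nearest, and MTF2 had -0.062 relative to the 20 nearest. The log2 difference of the RBBP4 to RBBP7 ratio ranged from -0.029 to 0.012 with a library left out. The causes were not tested. The ratio was not recomputed with pseudogene counts, as the table used holds no row named as a pseudogene of RBBP4 or RBBP7.

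Among the other lists, the genes that rose among those counteracting PRC2 numbered 1 in lane 1 alone rather than 2, and the deubiquitinase genes that fell numbered 1 in lane 1 alone and with scaling on chromosomes without shifted stretches. With a library left out, these counts ranged from 1 to 2, the counteracting genes that fell from 0 to 1, the HOX genes that fell from 1 to 2, and the genes described as silenced by PRC2 that rose from 1 to 2. The PRC1 genes that fell numbered 7 rather than 10 with DESeq2 and in lane 2 alone, and from 7 to 11 with a library left out. With DESeq2, 7 PRC1 genes thus rose and 7 fell. Developmental genes that fell numbered 10 in lane 1 alone and 15 with no filter, rather than 13. A fold of 1.2 as the null was not run on these lists. No paired analysis was possible because the labels give the groups no shared replicate numbers. Fold changes at EZH1's depth were the least precise among the members.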
